A study of Osmia excavata with 6 samples.

Results

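The genes described here encode the yolk protein vitellogenin, its receptor, the lipid-carrying apolipophorins and the hexamerin and arylphorin storage proteins of Osmia excavata, a solitary mason bee. They are the 9 rows, among 37061 in the deposited table and 11315 that name a Hymenoptera genus, whose description names one of these proteins and a bee genus. The rule had room for 10 rows, ranked by mean TPM, and kept Vg (TRINITY_DN7540_c0_g1) and an apolipophorins row (TRINITY_DN1986_c0_g2) by name. Since only 9 rows matched, neither level nor name left a row out, and the set was in effect chosen by description. RNA was sequenced from 3 libraries of control bees and 3 of bees given water immersion, a treatment studied for promoting emergence from the cocoon (decocooning). The immersion samples are titled a decocooning group, so wetting and emergence cannot be told apart. The labels name no tissue (that field holds the species), and no sex, age or time of sampling, nor whether a library came from 1 bee or from several, so each p-value measures only the spread between these samples.

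Vitellogenin is made in the insect fat body, secreted into the blood and taken up by growing egg cells through the vitellogenin receptor. Apolipophorins are the protein part of lipophorin, the particle that carries lipid from the fat body to muscle, ovary and other tissues. Hexamerins and arylphorins are blood proteins that larvae store and use up as a source of amino acids during metamorphosis and early adult life. Mason bees spend the winter in the cocoon as adults and live on stored reserves.

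The libraries held between 16765886 and 19953734 estimated counts, of which 92.6% to 94.5% fell on Hymenoptera rows. Rows matching the nematode Caenorhabditis held 3464 CPM (counts scaled for library size) in control 1, 0.908 in control 2 and 0.209 in control 3, and between 14050 and 14980 after immersion. Control 1 was thus the single control above 1000 CPM of worm reads, where all immersion libraries were. Their part in the results below was not tested. A fit with a term for worm reads above that level sets the immersion libraries against control 1 alone. Its spread comes from the immersion libraries and controls 2 and 3, and control 1 is assumed to vary like them. The labels name no batch, so this split rests on the reads. A fit without control 1 keeps only controls below 1000 CPM of worm reads, so treatment and worm reads cannot be told apart in it.

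The 9 rows together held 2.21%, 3.38% and 6.26% of the Hymenoptera counts in controls 1, 2 and 3, and 1.62%, 1.63% and 1.40% in immersion libraries 1, 2 and 3. Vg alone made up between 60.4% and 78.7% of the counts of the set in each library. In TPM, a level scaled for length, the rows covered a wide range, from a mean of 9959 for Vg to 1.30 for the lowest row above the filter on low counts. Vg ranked 10th, 4th and 2nd among Hymenoptera rows by TPM in controls 1, 2 and 3 and 5th, 5th and 6th after immersion. The hexamerin rows lay at the other end, and the 3 of them summed to 13.8, 17.6 and 28.6 TPM in the controls and to 15.8, 11.0 and 10.6 after immersion.

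**Figure D1:**
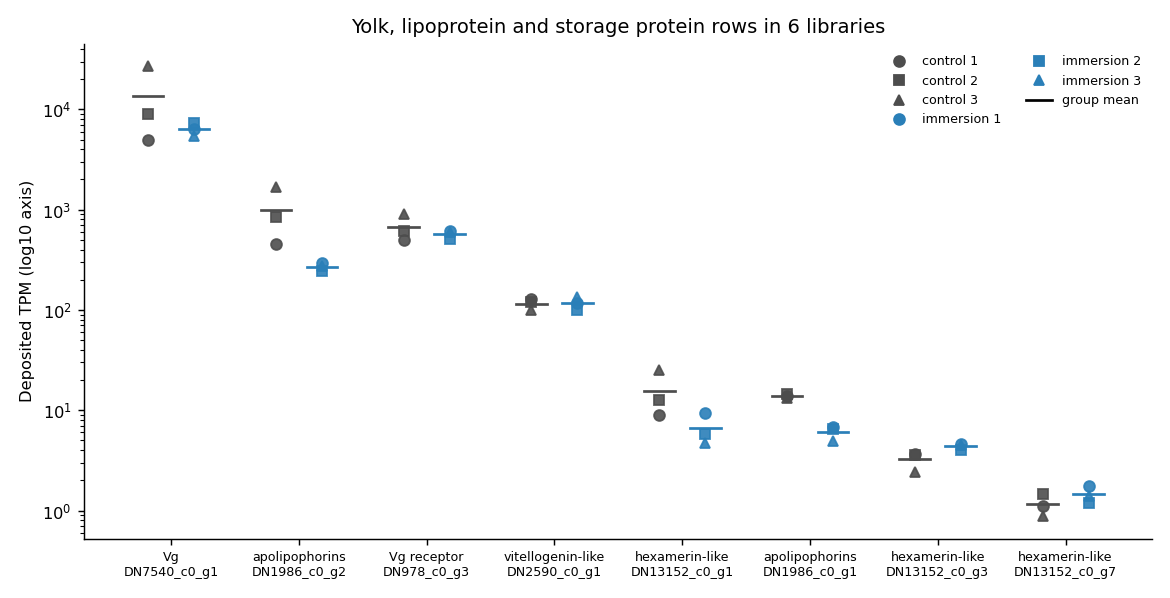
Deposited TPM (log10 axis) of the 8 tested rows in the 3 control (grey) and 3 immersion (blue) libraries, with bars at the group means. Vg lies between 4961 and 26794 TPM, and control 3 is the highest library for Vg, for the apolipophorins row TRINITY_DN1986_c0_g2 and for the receptor.

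Of the 9 rows, 8 passed the filter on low counts and were tested with edgeR's quasi-likelihood test over 9250 Hymenoptera rows. With an adjusted p threshold of 0.05, 0 of the 8 were called, as were 0% of all tested rows. At an unadjusted p under 0.05, which 34.8% of all tested rows reached, 4 of the 8 were lower after immersion (20.6% of all tested rows) and 0 were higher (14.2%). By normalised CPM the groups did not overlap in 4 of the 8, where 46.2% of all tested rows did not. In 3 of these 4 rows all immersion libraries were the lower ones (22.2% of all tested rows) and in 1 the higher ones (24%). The fitted fold change was below 0 in 5 of the 8 and in 48.8% of all tested rows. The 4 lower rows were Vg, both apolipophorins rows and the hexamerin-like row TRINITY_DN13152_c0_g1. The median log2 fold change, immersion minus control, was -0.65 over the 8 rows and 0.02 over all tested rows.

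Vg, described as vitellogenin of Osmia cornifrons, is 6068 bases long in the table and joins 3 assembled transcripts. Its estimated counts were 244308, 450773 and 928633 in controls 1, 2 and 3 and 182678, 190519 and 139701 in immersion libraries 1, 2 and 3. Scaled by library size and TMM factors (normalised CPM), these were 15282, 28041 and 65405 in the controls and 9458, 9807 and 7524 after immersion. All controls were above all immersion libraries on this scale, and the controls differed among themselves by more than the lowest of them differed from immersion. The log2 fold change was -2.02 ± 0.52 (SE, n = 3 each), a 4.06-fold lower level, and edgeR's quasi-likelihood test gave an adjusted p of 0.0907. Without control 3 it was -1.28 (adjusted p = 0.0376 in edgeR). Without control 1, where treatment and worm reads cannot be told apart, it was -2.38 (adjusted p = 0.00772 in edgeR). With control 2 or 1 immersion library left out it lay between -2.18 and -1.91 (adjusted p = 0.251 to 0.329 in edgeR). With length trends removed it was -1.4 (adjusted p = 0.088 in edgeR). With the term for worm reads, and so against control 1 alone, it was -0.78 ± 0.48 (adjusted p = 0.752 in edgeR).

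The length-scaled level of Vg gave another order. Its TPM was 4961, 8954 and 26794 in controls 1, 2 and 3 and 6321, 7243 and 5482 in the immersion libraries. Control 1 was the lowest of all 6, so the groups overlapped. In limma on log2(TPM + 1) the log2 difference was -0.75 ± 0.58 (adjusted p = 0.348).

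Counts and TPM of a row part when the length the quantifier assigns to it differs between libraries. That length was read as the ratio of count to TPM, scaled so that 1227 single-transcript rows of at least 1000 bases matched their listed length at the median. For Vg the implied length was 4350, 4741 and 3562 bases in the controls and 2202, 1846 and 1986 bases after immersion. Every immersion library lay below every control, with 4218 ± 601 against 2011 ± 179 bases (SD, n = 3 each) and a ratio of 0.477. Among 5630 Hymenoptera rows with more than 1 transcript and at least 100 counts in every library, the median ratio was 0.998 and the middle 90% lay between 0.859 and 1.09. Only 2 of these rows, Vg included, had a ratio as low as that of Vg. A shorter implied length gives a higher TPM for the same count. The table gives no counts for the 3 single transcripts of Vg, and the cause of the shift was not tested. With this length as an offset in edgeR, an alternative chosen after the data were seen, the log2 fold change was -1.07 ± 0.58 (adjusted p = 0.213).

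**Figure D2:**
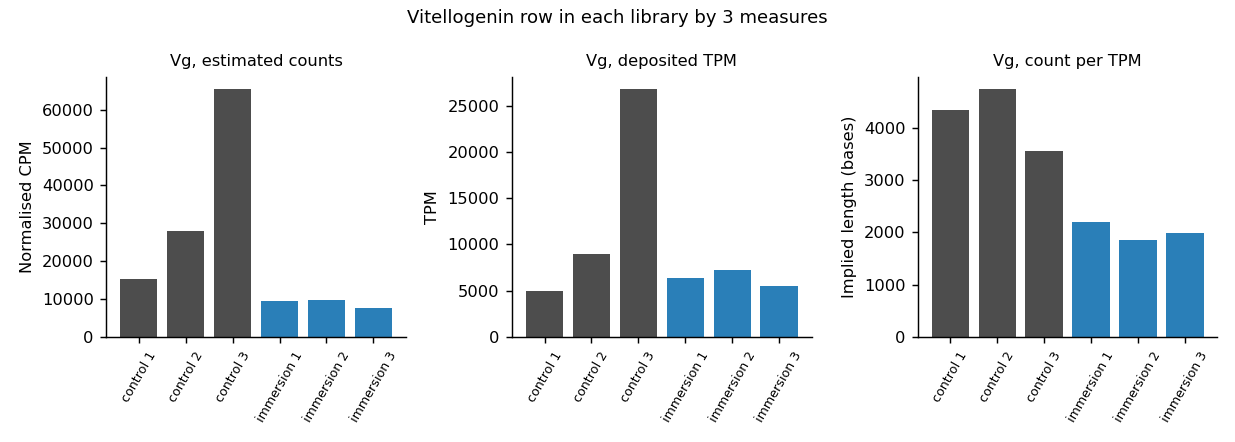
Vg in each library as normalised CPM of the estimated counts (left), deposited TPM (middle) and implied length in bases (right), with controls in grey and immersion in blue. The immersion libraries lie below all controls on the left and on the right, while in TPM control 1 (4961) lies below all 3 of them.

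A second row with the symbol Vg, TRINITY_DN2590_c0_g1, is described as vitellogenin-like of Megachile rotundata and is 2233 bases long. It had 128, 119 and 101 TPM in the controls and 118, 100.2 and 135 TPM after immersion. The groups overlapped, and the log2 fold change was 0.03 ± 0.16 with an adjusted p of 0.9 in edgeR. Its implied length stayed between 1350 and 1403 bases in all 6 libraries. The table does not say whether it is a fragment of Vg or a paralog, and both carry the same Vitellogenin_N domain.

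The vitellogenin receptor VgR (TRINITY_DN978_c0_g3), the endocytic receptor of the egg cell, is 6130 bases long and pools 38 assembled transcripts. Its assembly cluster of 10 rows also holds mucin-22-like and uncharacterized rows, so reads may be shared between them. Its level was 497, 610 and 905 TPM in the controls and 607, 515 and 602 TPM after immersion, so control 3 was the high library and the others were mixed. The log2 fold change was -0.16 ± 0.24 (adjusted p = 0.639 in edgeR). Its sign was positive without control 3 (0.12), with the term for worm reads (0.20) and with length trends removed (0.38). By TPM, Vg per receptor was 9.99, 14.7 and 29.6 in the controls and 10.4, 14.1 and 9.10 after immersion. On that ratio control 1 lay within the immersion range, control 2 just above it and control 3 far above. By counts, without the implied length described above, Vg per receptor was 7.48, 12.4 and 18.6 in the controls and 3.93, 4.45 and 3.13 after immersion, with no overlap.

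The larger apolipophorins row, TRINITY_DN1986_c0_g2, is 10819 bases long with 4 transcripts. It had 455, 849 and 1682 TPM in controls 1, 2 and 3 and 291, 247 and 275 TPM after immersion. Here the groups did not overlap by TPM or by normalised CPM, where the means were 8318 ± 5119 and 2375 ± 120.5 (SD, n = 3 each). The immersion libraries lay close together, whereas the controls were spread widely, with control 3 highest. The log2 fold change was -1.81 ± 0.43, a 3.50-fold lower level, with an adjusted p of 0.0907 in edgeR. It was -2.13 without control 1 (adjusted p = 0.00723) and -1.20 without control 3 (adjusted p = 0.0304), both in edgeR. With control 2 or 1 immersion library left out it lay between -1.93 and -1.77 (adjusted p = 0.251 to 0.329 in edgeR). It was -0.98 once a trend on gene length was removed, and -0.78 with the term for worm reads, with edgeR's adjusted p at 0.0812 and 0.688. Unlike that of Vg, its implied length was even, between 12150 and 12690 bases in the 6 libraries. Apolipophorin per receptor was 0.917, 1.39 and 1.86 by TPM in the controls and 0.479, 0.479 and 0.456 after immersion, with no overlap.

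The smaller apolipophorins row, TRINITY_DN1986_c0_g1, comes from the same assembly cluster, is 1827 bases long and joins 34 transcripts. It had 13.8, 14.5 and 13.2 TPM in the controls and 6.77, 6.43 and 4.94 TPM after immersion. The controls were close together here, control 3 did not stand out, and the groups did not overlap. The log2 fold change was -1.15 ± 0.22, a 2.22-fold lower level, with an adjusted p of 0.089 in edgeR and the smallest unadjusted p of the set, 0.00101. It was near that value without control 1 (-1.22, adjusted p = 0.00801 in edgeR), without control 3 (-1.09, adjusted p = 0.0424 in edgeR) and with the term for worm reads (-0.98). With control 2 or 1 immersion library left out it lay between -1.23 and -1.03 (adjusted p = 0.251 to 0.329 in edgeR). With length trends removed it was lower, at -1.48 (adjusted p = 0.0628 in edgeR). The larger row stood 33.0, 58.6 and 127 times above the smaller one by TPM in the controls, and 43.0, 38.3 and 55.6 times after immersion. The 2 rows therefore did not keep a fixed ratio among the controls.

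Among the storage proteins, the hexamerin-like row TRINITY_DN13152_c0_g1 (2169 bases, a single transcript) had 9.02, 12.6 and 25.3 TPM in the controls and 9.42, 5.79 and 4.67 TPM after immersion. Immersion library 1 lay above control 1, so the groups overlapped. The log2 fold change was -1.21 ± 0.43 (adjusted p = 0.115 in edgeR). In edgeR it was -1.47 without control 1 (adjusted p = 0.0204), -0.67 without control 3 (adjusted p = 0.159) and -0.46 with the term for worm reads. With control 2 or 1 immersion library left out it lay between -1.51 and -1.01 (adjusted p = 0.253 to 0.329 in edgeR). The row TRINITY_DN13152_c0_g3 (3711 bases) had 3.70, 3.58 and 2.44 TPM in the controls and 4.56, 3.99 and 4.55 TPM after immersion, with every immersion library higher. Its log2 fold change was 0.45 ± 0.22 (adjusted p = 0.179 in edgeR).

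That last row carries a hemocyanin domain and, in another column, the orthologous group of WD repeat domain 43, so it may join parts of 2 genes. Its assembly cluster of 8 rows also holds a row described as WD repeat-containing protein 43, TRINITY_DN13152_c0_g8, which averaged 96.9 ± 14.8 normalised CPM in the controls against 139 ± 1.45 in the immersion libraries (SD, n = 3 each). The third hexamerin-like row, TRINITY_DN13152_c0_g7, had between 0.88 and 1.45 TPM in controls and between 1.18 and 1.77 after immersion (log2 fold change 0.33 ± 0.33, adjusted p = 0.466 in edgeR). The arylphorin row TRINITY_DN26776_c0_g1, 218 bases long, did not pass the filter: it had 1.78 estimated counts in immersion library 2 and 0 in the other libraries, too few for any comparison.

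**Figure D3:**
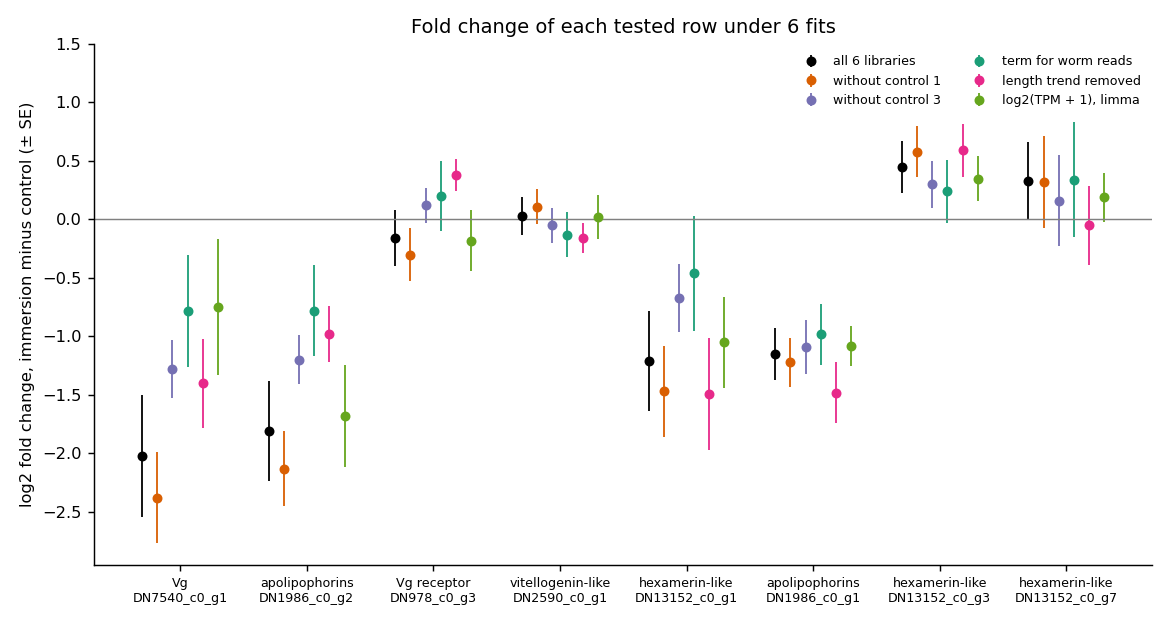
Log2 fold change of immersion minus control with its SE for the 8 tested rows, in the fit of all 6 libraries (black) and 5 alternatives. The Vg and apolipophorins rows lie below 0 in all 6 fits, between -2.38 and -0.75 for Vg, while the receptor and the vitellogenin-like row lie on either side of 0.

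The calls depended on the tool and on the controls. DESeq2 called 4 of the 8 rows (22.4% of all rows with an adjusted p), all of them lower (15.1% of all such rows). They were the same 4 that were lower at an unadjusted p in edgeR. Vg had an adjusted p of 0.000715 there and TRINITY_DN1986_c0_g2 one of 0.000557. Without control 1 edgeR called those 4 rows, where it called 52.3% of all tested rows. In that fit treatment and worm reads cannot be told apart. Without control 3 edgeR called 3, Vg and both apolipophorins rows, where it called 3.87% of all tested rows. With control 2 or 1 immersion library left out it called 0 of the 8 and 0 of all tested rows. With the term for worm reads it called 0 of the 8 and 0.0108% of all tested rows, and with length trends removed 0 of the 8 and 0.281% of all tested rows.

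The domain column placed a Vitellogenin_N domain, the lipid-binding part that large lipid transfer proteins share, in 3 of the 9 rows, a hemocyanin domain in 3 and an LDL receptor domain in the receptor. A further 12 Hymenoptera rows with other descriptions carry such domains, a group put together after the data were seen and not tested as one. It holds 7 rows with Vitellogenin_N, 4 with a hemocyanin domain and 1 with ApoLp-III, the domain of the small exchangeable apolipophorin. The ApoLp-III row TRINITY_DN19991_c0_g2, described as an uncharacterized protein, was the most abundant, with 2214, 2245 and 1979 TPM in the controls and 2144, 2861 and 2092 TPM after immersion. These groups overlapped (log2 fold change 0.17 ± 0.22, adjusted p = 0.552 in edgeR), unlike the larger apolipophorins row.

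Among the 12, 4 were lower at an unadjusted p under 0.05 and 0 higher (20.6% and 14.2% of all tested rows), and the median log2 fold change was -0.06. MTTP (TRINITY_DN968_c0_g1), the microsomal triglyceride transfer protein that loads lipid onto newly made lipoproteins, had 46.9, 70.0 and 91.6 TPM in the controls and 42.5, 39.7 and 38.6 TPM after immersion. Its log2 fold change was -0.75 ± 0.23 (adjusted p = 0.101 in edgeR). An uncharacterized Vitellogenin_N row, TRINITY_DN11032_c0_g1, had 18.9, 21.2 and 41.3 TPM in the controls and 6.82, 6.50 and 10.03 TPM after immersion (log2 fold change -1.74 ± 0.33, adjusted p = 0.0879 in edgeR). A longer one of 14692 bases, TRINITY_DN2192_c0_g1, had 26.1, 42.0 and 64.5 TPM in the controls and 20.6, 17.8 and 19.0 TPM after immersion (log2 fold change -1.13 ± 0.29, adjusted p = 0.0907 in edgeR). Both had all controls above all immersion libraries. On the other side TRINITY_DN455_c1_g2, also with Vitellogenin_N, had 142, 108 and 48.2 TPM in the controls and between 159 and 174 TPM after immersion (log2 fold change 0.74 ± 0.34, adjusted p = 0.161 in edgeR). Of the hemocyanin rows, one described as an allergen of the Cr-PI kind (TRINITY_DN3994_c0_g1), which in cockroaches is a hexamerin, averaged 14.4 ± 9.13 normalised CPM in the controls against 5.60 ± 1.69 in the immersion libraries (SD, n = 3 each; log2 fold change -1.36 ± 0.51, adjusted p = 0.121 in edgeR). Phenoloxidase 2 (TRINITY_DN3212_c2_g1), which shares that domain and acts in melanin formation, had 43.6 ± 3.07 and 45.5 ± 4.36 normalised CPM.

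**Figure D4:**
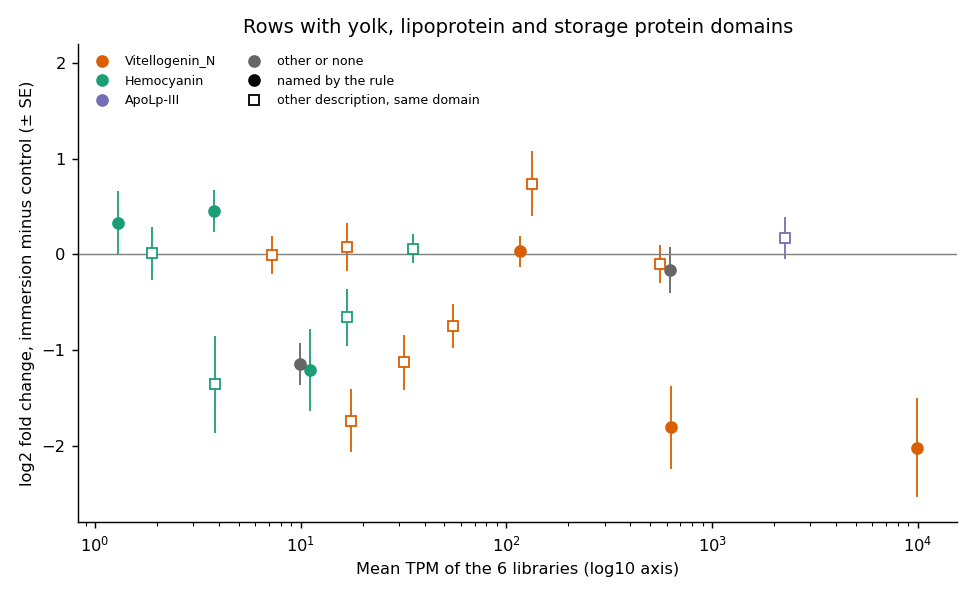
Log2 fold change of immersion minus control with its SE against mean TPM (log10 axis) for the 8 tested rows (filled circles) and the 12 rows with the same domains but other descriptions (open squares), coloured by domain. Vg and the larger apolipophorins row lie lowest, at -2.02 and -1.81, and the abundant ApoLp-III row lies at 0.17.

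Other genes of the pathway were taken from lists of description words. In no list did edgeR call a row after adjustment (0). The counts below are at an unadjusted p under 0.05, which 20.6% of all tested rows reached as lower and 14.2% as higher. Of 3 tested lipoprotein receptors other than VgR, 1 was lower at an unadjusted p under 0.05. It was Lrp2 (TRINITY_DN21_c1_g3), the megalin-type endocytic receptor, which averaged 100.5 ± 41.1 normalised CPM in the controls against 41.3 ± 7.88 in the immersion libraries (SD, n = 3 each). The more abundant very low-density lipoprotein receptor-like row (TRINITY_DN1417_c0_g1), the family of the insect lipophorin receptor, had 921 ± 97.3 and 759 ± 66.8 (log2 fold change -0.28 ± 0.17, adjusted p = 0.244 in edgeR). Of 20 tested rows for lipoprotein assembly and lipid carriers, 7 were lower and 4 higher, and the list's median log2 fold change was 0.02, the same as that of all rows. Apolipoprotein D (TRINITY_DN6641_c0_g1), a carrier of small lipids, had 158 ± 10.3 and 110 ± 7.14 normalised CPM. The row with the smallest p in that list, PACS2 (TRINITY_DN1927_c0_g1), is a sorting protein that was matched by the word furin in its name.

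Of 20 tested rows for the hormone signals known to govern yolk synthesis in insects, 10 were lower at an unadjusted p under 0.05 and 0 higher, and the median log2 fold change was -0.76. Many rows of this list are described as broad-complex core protein, FTZ-F1 or ecdysone-induced protein 78C. Some may be parts of the same genes, so the count may not be of separate genes. The 3 rows of the list with the smallest p were br (TRINITY_DN1981_c0_g1), an ecdysone response factor, foxo (TRINITY_DN763_c4_g1), the transcription factor that insulin signalling restrains, and chico (TRINITY_DN2931_c1_g1), the insulin receptor substrate. In turn their control means were 38.8 ± 4.97, 219 ± 54.7 and 143 ± 40.5 normalised CPM, and their immersion means 18.6 ± 3.69, 107 ± 16.2 and 68.5 ± 12.6 (SD, n = 3 each). By normalised CPM all immersion libraries lay below all controls for each of them. By TPM the groups overlapped for chico, with 21.6 in control 1 and 22.5 in immersion library 1. The adjusted p of br, foxo and chico in edgeR were 0.0891, 0.0907 and 0.0907. These rows are 3617, 7051 and 8259 bases long. Removing a trend on gene length moved long rows, as with the receptor (-0.16 to 0.38). No list was counted with that trend removed, so the part of length in the list counts and medians was not tested.

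In the list of fat body and blood proteins 2 of 15 tested rows were lower and 0 higher, with a median log2 fold change of 0.06. Its words also matched 4 rows of another kind, transferrin receptors and mitochondrial phosphatases, none (0) of them lower or higher at that p. Transferrin (TRINITY_DN4872_c0_g3), a blood iron carrier, measured 305, 718 and 1202 TPM in controls 1, 2 and 3 and between 195 and 250.3 after immersion, with control 3 highest as for Vg (log2 fold change -1.66 ± 0.44, adjusted p = 0.0907 in edgeR). Another transferrin row (TRINITY_DN5342_c0_g1) stood at 47.5, 46.8 and 50.4 TPM in controls 1, 2 and 3 and at 44.7 to 50.7 after immersion. A ferritin subunit row (TRINITY_DN2441_c0_g1) had the reverse order of controls, with 2983, 1864 and 924 TPM, and 2886 to 3180 TPM after immersion. The list's summed level, in which that ferritin row weighs heavily, was 4430 to 5580 TPM in controls and 5408 to 5935 TPM after immersion. Fewer cells of a type and less RNA per cell cannot be told apart in these samples.

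Markers of other tissues that the samples could hold were counted in the same way, against the same 20.6% and 14.2% of all tested rows. Of 11 tested ovary and germline rows 1 was lower and 4 higher, with a summed level of 601 to 908 TPM in controls and 745 to 908 TPM after immersion. The lower row is described as chorion transcription factor Cf2 (TRINITY_DN2459_c0_g2). A Lok-like kinase (TRINITY_DN5152_c1_g1) is 1 of the higher rows, and the words also matched bicaudal D rows. That count may thus not be of ovary rows alone. The germline helicase vasa (TRINITY_DN873_c1_g1), named after its values were seen, stood at 60.9, 140 and 196 TPM in controls 1, 2 and 3. With immersion it stood at 82.8 to 94.1, and its order of controls was that of Vg. Rows of the list differed in this order. Protein piwi (TRINITY_DN3843_c0_g1) shared it, with 73.4, 103 and 140 TPM. Piwi-like protein 1 (TRINITY_DN1807_c0_g1) did not, with 43.55, 33.0 and 30.2 TPM, nor did maelstrom (TRINITY_DN19171_c0_g1), with 60.7, 49.6 and 51.0 TPM. Exuperantia (TRINITY_DN23914_c0_g1), which places RNA in the fly egg, averaged 300.3 ± 9.71 normalised CPM in the controls against 517 ± 65.0 in the immersion libraries (log2 fold change 0.78 ± 0.16, adjusted p = 0.0891 in edgeR). Of the haemocyte markers 4 of 5 were lower and 1 higher, with 205 to 396 TPM in controls and 184 to 185 TPM after immersion, and hemocytin (TRINITY_DN3702_c0_g1) stood at 22.1, 34.8 and 55.8 TPM in the controls and at 14.5 to 15.6 after immersion. Of the muscle markers 23 of 38 were lower and 0 higher, although their summed level overlapped, with 22684 to 23973 TPM in controls and 17422 to 29575 TPM after immersion. A troponin C row (TRINITY_DN823_c0_g1) held much of that sum, with 11016, 7834 and 5670 TPM in controls 1, 2 and 3 and 9781 to 16528 after immersion. Many of the muscle rows are described as titin or titin-like and may be parts of the same genes. Lower and higher rows numbered 2 and 3 of 25 for testis, 10 and 3 of 24 for nervous system, 13 and 1 of 38 for gut and 1 and 0 of 4 for sex determination. The nervous system words also matched syntaxin-12, syntaxin-16, syntaxin-17, syntaxin-18, extended synaptotagmin-2 and CUGBP Elav-like rows, so that count is not of neural rows alone. The testis words also matched 8 tested rows of polyamine enzymes (spermine and spermidine), of which 1 was lower and 1 higher. The gut words also matched 10 tested rows of protease inhibitors and intracellular glucosidases, 0 lower and 1 higher. The lower gut rows include mucin-named rows with a phosphatase domain (TRINITY_DN990_c0_g1) and a DDHD domain (TRINITY_DN893_c0_g1). They also include mucin-22-like rows of the receptor's assembly cluster (TRINITY_DN978_c0_g2 and TRINITY_DN978_c0_g4), so the gut count does not stand for gut alone. The part of these tissues in the values of the yolk and lipoprotein rows was not tested.

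The 3 non-member rows whose normalised CPM followed Vg most closely over the 6 libraries, among 6787 rows with a mean of at least 10 TPM, were 2 spondin-1 rows (TRINITY_DN2549_c0_g1, r = 0.999, and TRINITY_DN2332_c0_g2, r = 0.998) and a Tret1-like trehalose transporter (TRINITY_DN2126_c0_g2, r = 0.999). All 3 had control 3 highest and control 1 lowest among the controls. The likeness is common, since 844 of the 6787 rows had an r above 0.95 on the log2 scale over these 6 points, which share their libraries.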

How the data were processed

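The authors deposited estimated counts and TPM for each assembled gene in 1 table, with lengths and annotations. The submitters' processing notes list Salmon, edgeR and cutadapt 1.9 with no roles. Assembly and quantification settings: not given in the sources used here. Estimated counts of rows naming a Hymenoptera genus were rounded to whole numbers and fitted in R 4.3.3 by edgeR 4.0.16 (filterByExpr, TMM, glmQLFit, glmQLFTest, treatment as the only term, two-sided, Benjamini-Hochberg over 9250 rows). Foreign rows were left out because they separate the libraries, and the whole table is an alternative. Standard errors are the fold change divided by the root of the quasi-likelihood F. DESeq2 1.42.0 and limma 3.58.1 (with trend) were alternatives, with other scalings, no filter, a loess trend on length (span 0.3), a term for worm reads above 1000 CPM, summed descriptions, a replicate block and each library left out. The members, lists and tests were chosen with earlier results of these data known. Genes named by rule are all members, the 3 rows of each list with the smallest p, of which the text gives some, and the 3 rows most like Vg. Other list rows given with values fall outside that rule and were named after the data were seen. They are another transferrin row, a ferritin subunit row, vasa, piwi, piwi-like protein 1, maelstrom and a troponin C row. The rows with shared domains were added after the data were seen. Reads of paralogs or alleles can be split between rows. Intervals were not computed. Depth enters the edgeR fits through the library sizes and scaling factors.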

Additional observations from a re-analysis of the deposited data

Results flagged for a closer look

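Worm yolk proteins appeared in the same table, outside the bee comparison. The 11 rows described as vitellogenins of Caenorhabditis elegans summed to 374.9 TPM in control 1, to 0 in controls 2 and 3, and to 1284.6, 1265.6 and 1229.4 TPM in immersion libraries 1, 2 and 3. They were picked out because they stood above 0 in 1 control and in all immersion libraries. These rows are not among the bee rows, and their words would match a search for vitellogenin that did not ask for a bee genus.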

How the results depend on the processing

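The number of Hymenoptera rows called was 0 with all 6 libraries, 2028 with DESeq2, 26 with length trends removed, 1 with a term for worm reads and between 0 and 4912 with 1 library left out, the highest being without control 1 and the next, 362, without control 3. The summed level of the set, as a log2 ratio of immersion to control, was -1.56, and -0.76 by TPM. Vg lay between -2.38 and -0.75 and the larger apolipophorins row between -2.13 and -0.78 over 20 fits, all below 0. The sign changed for 3 rows. The vitellogenin-like row (0.03) went to 0 with DESeq2 and with RLE size factors, to -0.16 with length trends removed, to -0.13 with a term for worm reads and to between -0.07 and 0.11 with 1 library left out. The receptor (-0.16) went to 0.38 with length trends removed, 0.20 with a term for worm reads and between -0.30 and 0.12 with 1 library left out. TRINITY_DN13152_c0_g7 (0.33) went to -0.05 with length trends removed. The cause was not tested. The labels do not say whether same-numbered samples were paired. Same-numbered libraries had correlations of their deviations of -0.154, 0.141 and 0.164. Control 2 was most like its own number, and control 1 and control 3 were not. With 3 libraries a group these values cannot settle whether samples were paired. With the replicate block edgeR called 0 rows, and Vg stood at -1.76. Counts were lowest for the arylphorin row (1.78 in all) and for TRINITY_DN13152_c0_g7 (10.4 to 27.0 a library).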
